A study of Mus musculus with 26 samples.

Results

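Stromal cells sorted from mouse hearts 14 days after coronary ligation were compared with the same cells at 7 days, with the SCA-1 gate of the sort kept in the model. The comparison held 10 of the 26 libraries of the series: 4 from day 14 and 6 from day 7, chosen by time point, with the gate read from the "pos" or "neg" in each library's name. All 10 came from C57BL/6 mice of the strain B6.129S4-Pdgfratm11(EGFP)Sor/J with genotype PDGFRa H2BEGFP+, whose Pdgfra locus drives a nuclear green fluorescent protein. All had ligation of the left anterior descending (LAD) coronary artery, which causes an infarct, so neither group was uninjured. The sorted cells carried the fluorescent protein, lacked CD45 (leukocytes) and CD31 (endothelium), and were SCA-1 positive or SCA-1 negative. Such a sort takes cells by a reporter of Pdgfra and not by fibroblast identity as such. For 4 of the 6 day 7 libraries the gate stood only in the library's name and not in its other labels.

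Resident fibroblasts of the heart carry PDGF receptor alpha. After an infarct they divide, lay down collagen and other matrix, and take on features of contractile myofibroblasts, and later settle into a less active state within the scar. SCA-1, the surface protein of Ly6a, marks a subset that is enriched around vessels and shares genes with adventitial and fascial progenitor-like fibroblasts. Wnt, BMP and FGF signals and their secreted inhibitors are among the pathways that these cells send and receive.

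Positive and negative libraries were joined into 5 pairs by their names. Day 7 had a pair whose labels carry no code (called uncoded here), pair 1A/1B and pair 4A/4B, in which A is positive and B negative. The day 7 pairs were inferred, the uncoded one from its shared name and the others from the number before A or B. Day 14 had pairs D1 and D9. Values are listed below in that order. Libraries held 10.9 to 19.1 M counts (M, counts in units of 1e6) in genes at day 7 and 19.6 to 48.8 M at day 14, so 3 counts in a library equal 0.169 to 0.278 CPM (counts per 1e6 counts, with TMM scaling) at day 7 and 0.0583 to 0.153 CPM at day 14. Detected genes numbered 14041 to 15124 and 15546 to 16013, which makes day 14 the deeper group in every library. Ly6a fitted the gates of the names: the positive libraries held 297, 297 and 329.9 CPM at day 7 and 548 and 474 at day 14, and the negative ones 30.7, 36.1 and 31.2 and 61.8 and 83.8. Pdgfra was at 337 to 527 CPM at day 7 and 374 to 595 at day 14, while Ptprc, the gene of CD45, was at 0.371 to 2.06 and 0.175 to 0.663 and Pecam1, the gene of CD31, at 3.49 to 11.2 and 3.92 to 11.3. Xist and Y-linked transcripts were both present in the uncoded pair (106 and 52.2 CPM of Xist) and in pair 4A/4B (228 and 328). Xist was at 299 and 825 CPM in pair D9, where Y-linked genes summed to 0.0207 and 0.311 CPM. In pairs 1A/1B and D1 Xist was at or under 3.15 CPM, and the Y-linked sums of pair D1 were 184 and 159 CPM. Fits without pair D1 or without pair D9 therefore kept only 1 of these patterns at day 14. The numbers before the codes occur at 1 time point each, so a batch that follows them and the time point cannot be told apart. The labels do not say whether libraries came from separate animals or from pools, so a p here reflects only how far these libraries spread.

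The first question was which genes differed between day 14 and day 7 when the gate was held constant. Among the genes that were higher at day 14 were Axin2, an inhibitor of Wnt signalling, the BMP family member Gdf10, the FGF ligands Fgf10 and Fgf1, and Ly6a. Among those that were lower were the collagen gene Col7a1, the collagen hydroxylase subunit P4ha3, the periostin gene Postn, the EGF receptor ligand Hbegf and the imprinted RNA H19. By edgeR's quasi-likelihood test with Benjamini-Hochberg adjustment, 201 genes were higher (1.49% of 13467 tested) and 151 lower (1.12%) at an adjusted p under 0.05, together 2.61%, and 2643 genes had an unadjusted p under 0.05. The difference was at least 1 on the log2 scale in 106 of the higher and 74 of the lower genes. The median over all genes tested was -0.004 log2. Differences are given below as day 14 minus day 7 on the log2 scale ± the standard error of the fit, over 4 against 6 libraries. Whether called or not, 2.42% of the genes tested had all day 14 above all day 7 libraries and 1.82% all below, and 124 higher and 76 lower calls were of this kind. Of the 352 called genes, 331 had day 14 and day 7 libraries that did not overlap inside either gate, and all 352 had the same sign in both gates. Over all genes tested these shares were 9.19% and 74.0%, and calls were made on both gates together, so nothing is read from either count.

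The number of calls depended on how pairs were treated. Libraries of a pair deviated together from their group means (r = 0.248 to 0.429 across genes), so the pair was also fitted as a random effect, which left 113 calls (54 higher, 59 lower), 108 of them among the 352. With the libraries of each pair summed, which leaves 3 against 2 samples, edgeR called 0 genes (1547 at an unadjusted p under 0.05), and no other tool was run on the sums. Without the uncoded pair of day 7 the count was 62, without pair D1 229, and without pair D9 182, of which 153 were higher and 29 lower. Leaving out 1 library gave 144 without the uncoded positive, 159 without the uncoded negative, 207 without 1A, 163 and 181 without D1 positive and negative, and 188 and 159 without D9 positive and negative. The other 3 libraries gave 243 to 378. Without the gate term 47 genes were called, and with all 26 libraries in a joint fit 48. A total of 28 genes, 17 higher and 11 lower, were called in the fit of the 10 libraries, in all 15 fits that left out a library or a pair, and with the pair as a random effect. Of these 28, 0 were called with the pairs summed (adjusted p 0.168 to 0.286), 13 with all 26 libraries (up to 0.363 for the others) and 13 without the gate term (up to 0.679). Not called with all 26 libraries were Ly6a, H19, Scube2, Fgf1, Mylk, March3, Klhl29, Col7a1, P4ha3, S100a10, Cav1, Cmbl, Gareml, Hbegf and Crip1. Without the gate term these were Ly6a, Scube2, Arhgap20, Gdf10, Klhl29, Ptges, Rasl11b, Col7a1, Gatm, D8Ertd82e, S100a10, Gareml, Foxc2, Hbegf and Crip1. These 28 were picked out after their values were seen, and they lead the account below, in which "blocked" gives the adjusted p of limma-voom with the pair as a random effect and "lost" the leave-out fits without a call. Of 98 called genes named by rule or afterwards, leaving out the uncoded pair ended 59 calls (highest adjusted p 0.164), pair D9 53 (0.358), pair D1 39 (0.41), pair 1A/1B 37 (0.104) and pair 4A/4B 10 (0.101). The 98 include the 28, which were picked for keeping their calls in these fits, so the counts describe the named genes only. Leaving out 1 library ended 7 (4A) to 40 (D9 negative), with a highest adjusted p of 0.154. For genes lost in several of these fits the number of fits is given.

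**Figure D1:**
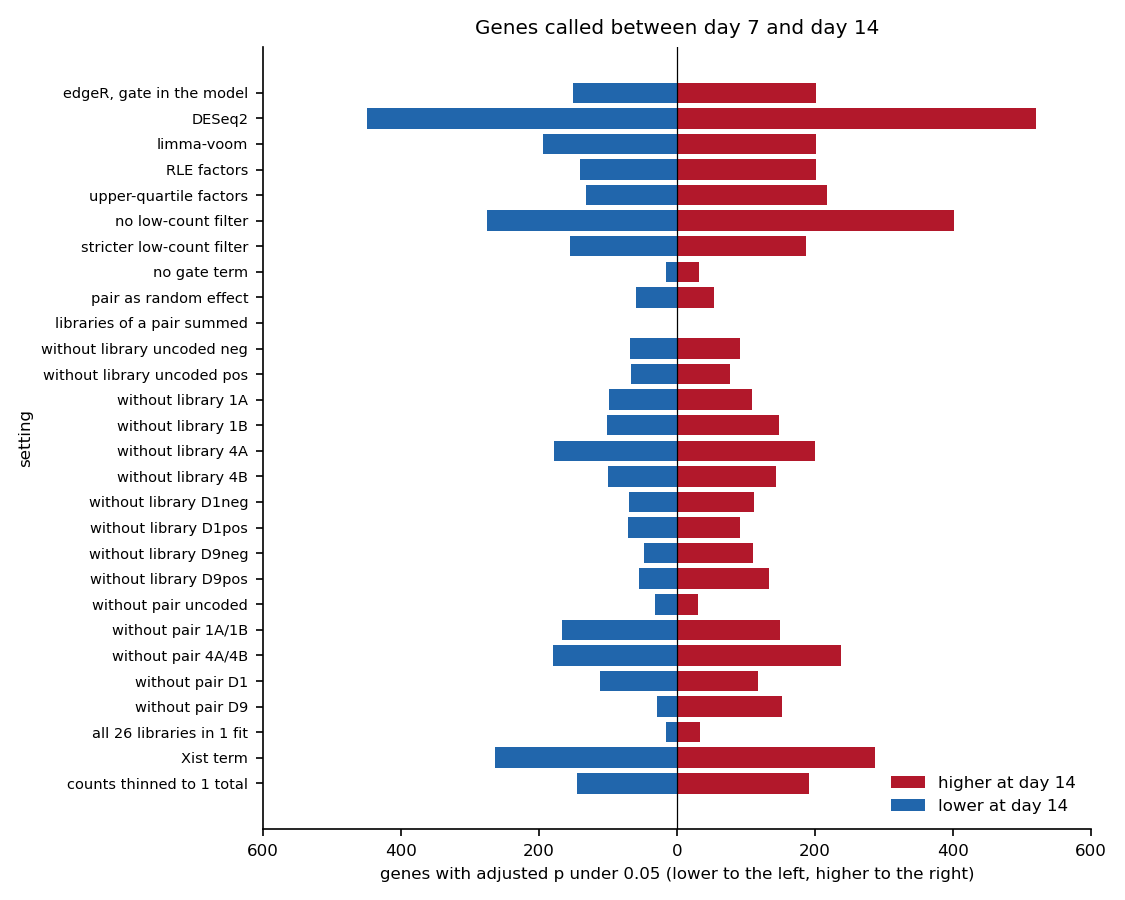
Genes with an adjusted p under 0.05 between day 7 and day 14 (x axis, number of genes, lower to the left and higher to the right) under each setting (y axis), from edgeR unless another tool is named. The bars run from 0 calls with the libraries of a pair summed to 521 higher and 449 lower by DESeq2, and the next shortest are those without the gate term (47), in the joint fit of 26 libraries (48) and without the uncoded pair (62).

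Among secreted signalling proteins, Gdf10, a member of the BMP family (ENSMUSG00000021943.7, chromosome 14, 33923587 to 33937983 in GRCm38), was at 14.1, 14.9 and 28.3 CPM in the positive and 3.55, 4.92 and 9.18 CPM in the negative libraries of day 7. The positive libraries of day 14 held 49.9 and 101 CPM and the negative ones 19.3 and 24.0 CPM. Inside each gate the days did not overlap, although the day 14 negative libraries lay near the day 7 positive ones, and the difference was 1.92 ± 0.28 (adjusted p by edgeR = 0.00975, blocked by pair 0.0147).

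Axin2, an inhibitor of beta-catenin whose transcription is raised by canonical Wnt signals (ENSMUSG00000000142.15, chromosome 11, 108920349 to 108950783), was at 5.38, 5.001 and 7.89 CPM in the positive and 4.29, 4.60 and 3.43 CPM in the negative libraries of day 7. Axin2 at day 14 was at 12.5 and 13.9 CPM in the positive and 11.1 and 12.8 CPM in the negative libraries. The day 14 libraries were all higher, by 1.30 ± 0.18 log2 (adjusted p by edgeR = 0.0072, blocked 0.0166). Undamaged hearts spanned 4.91 to 17.3 CPM, which covers the day 14 values. Of the FGF ligands, Fgf10 (ENSMUSG00000021732.14, chromosome 13, 118669791 to 118792115) was at 1.17, 0.787 and 2.06 CPM (positive) and 0.222, 1.51 and 0.742 CPM (negative) at day 7 and 9.94 and 21.9 CPM (positive) and 6.58 and 3.67 CPM (negative) at day 14. Fgf1 was at 6.34, 4.78 and 3.12 CPM (positive) and 5.69, 6.50 and 7.70 CPM (negative) at day 7 and 16.9 and 28.5 CPM (positive) and 16.3 and 18.0 CPM (negative) at day 14. Both were higher in all 4 day 14 libraries, by 3.14 ± 0.43 and 1.81 ± 0.24 log2 (adjusted p by edgeR = 0.0072 for each, blocked 0.0437 and 0.0188).

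Igfbp6, a binding protein of insulin-like growth factor II that is abundant in adventitial fibroblasts (ENSMUSG00000023046.6, chromosome 15, 102144362 to 102149511), was at 206, 222 and 219 CPM in the positive and 147, 224 and 180.2 CPM in the negative libraries of day 7. Day 14 gave 481 and 460.5 CPM of Igfbp6 in the positive and 317 and 333 CPM in the negative libraries. The days did not overlap, with a difference of 0.96 ± 0.13 (adjusted p by edgeR = 0.0072, blocked 0.0162). Ly6a (ENSMUSG00000075602.10, chromosome 15, 74994877 to 74998031), with the levels given above, was higher at day 14 in both gates, by 0.92 ± 0.13 (0.0072, blocked 0.0218). The Ly6a call ended with all 26 libraries (adjusted p 0.363), without the gate term (0.679) and with the pairs summed (0.286), where the difference was 0.61. The positive gate gave 0.71 ± 0.17 and the negative one 1.13 ± 0.18. Since SCA-1 set the gates, its level inside a gate also follows where the gate was drawn, which was not tested.

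Mylk, the gene of myosin light chain kinase (ENSMUSG00000022836.11, chromosome 16, 34745210 to 35002420), had the smallest p of all genes and was named after its values were seen. It was at 14.5, 14.3 and 12.9 CPM in the positive and 25.9, 18.4 and 20.9 CPM in the negative libraries of day 7. The positive libraries of day 14 held 37.3 and 49.1 CPM and the negative ones 52.7 and 49.9 CPM. Every day 14 library was above every day 7 library (1.42 ± 0.13, adjusted p by edgeR = 0.00222, blocked 0.00759). The Mylk call ended with all 26 libraries (adjusted p 0.115) and with the pairs summed (0.168). Gatm, an enzyme of creatine synthesis (ENSMUSG00000027199.14, chromosome 2, 122594467 to 122611303), was at 0.827, 1.18 and 1.13 CPM in the positive and 3.77, 9.12 and 8.07 CPM in the negative libraries of day 7. Gatm at day 14 was at 26.3 and 7.84 CPM in the positive and 73.7 and 33.5 CPM in the negative libraries. It differed by 3.39 ± 0.40 log2 (adjusted p by edgeR = 0.00578, blocked 0.0242), with no overlap inside a gate, and it was at 0 to 0.336 CPM in undamaged hearts. Every undamaged library held less Gatm than any day 7 or day 14 library.

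Further higher genes of these 28 were the membrane scaffold gene Cav1 (0.81 ± 0.11), the annexin partner S100a10 (0.96 ± 0.13), the LIM protein gene Crip1 (0.87 ± 0.11), the prostaglandin E synthase Ptges (1.20 ± 0.18), Arhgap20 (1.88 ± 0.28), Cmbl (1.33 ± 0.20), Tbx4 (4.60 ± 0.56) and Jchain (5.82 ± 0.75), the last 2 from day 7 levels near 0. Their adjusted p by edgeR lay between 0.00578 and 0.00975. Crip1 was at 278, 227 and 263 CPM (positive) and 194, 190.1 and 169 CPM (negative) at day 7 and 492 and 447 CPM (positive) and 317 and 370.5 CPM (negative) at day 14. Cav1 was at 67.8, 73.9 and 62.7 CPM (positive) and 61.6, 69.5 and 64.3 CPM (negative) at day 7 and 123 and 114 CPM (positive) and 136 and 99.7 CPM (negative) at day 14. For both, all day 14 libraries were above all day 7 libraries. Jchain, the joining chain of secreted antibodies, was at 0, 1.07 and 0 CPM (positive) and 0, 0.159 and 0 CPM (negative) at day 7 and 24.2 and 23.8 CPM (positive) and 3.62 and 1.17 CPM (negative) at day 14. It was highest in the positive libraries of day 14, and its fitted value depends on the prior count. The lymphoid marker list summed to 0 to 1.21 CPM at day 7 and 0.306 to 1.21 at day 14, with Cd3e at 0 to 0.202 and Cd79a at 0 to 0.369 CPM at day 14.

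**Figure D2:**
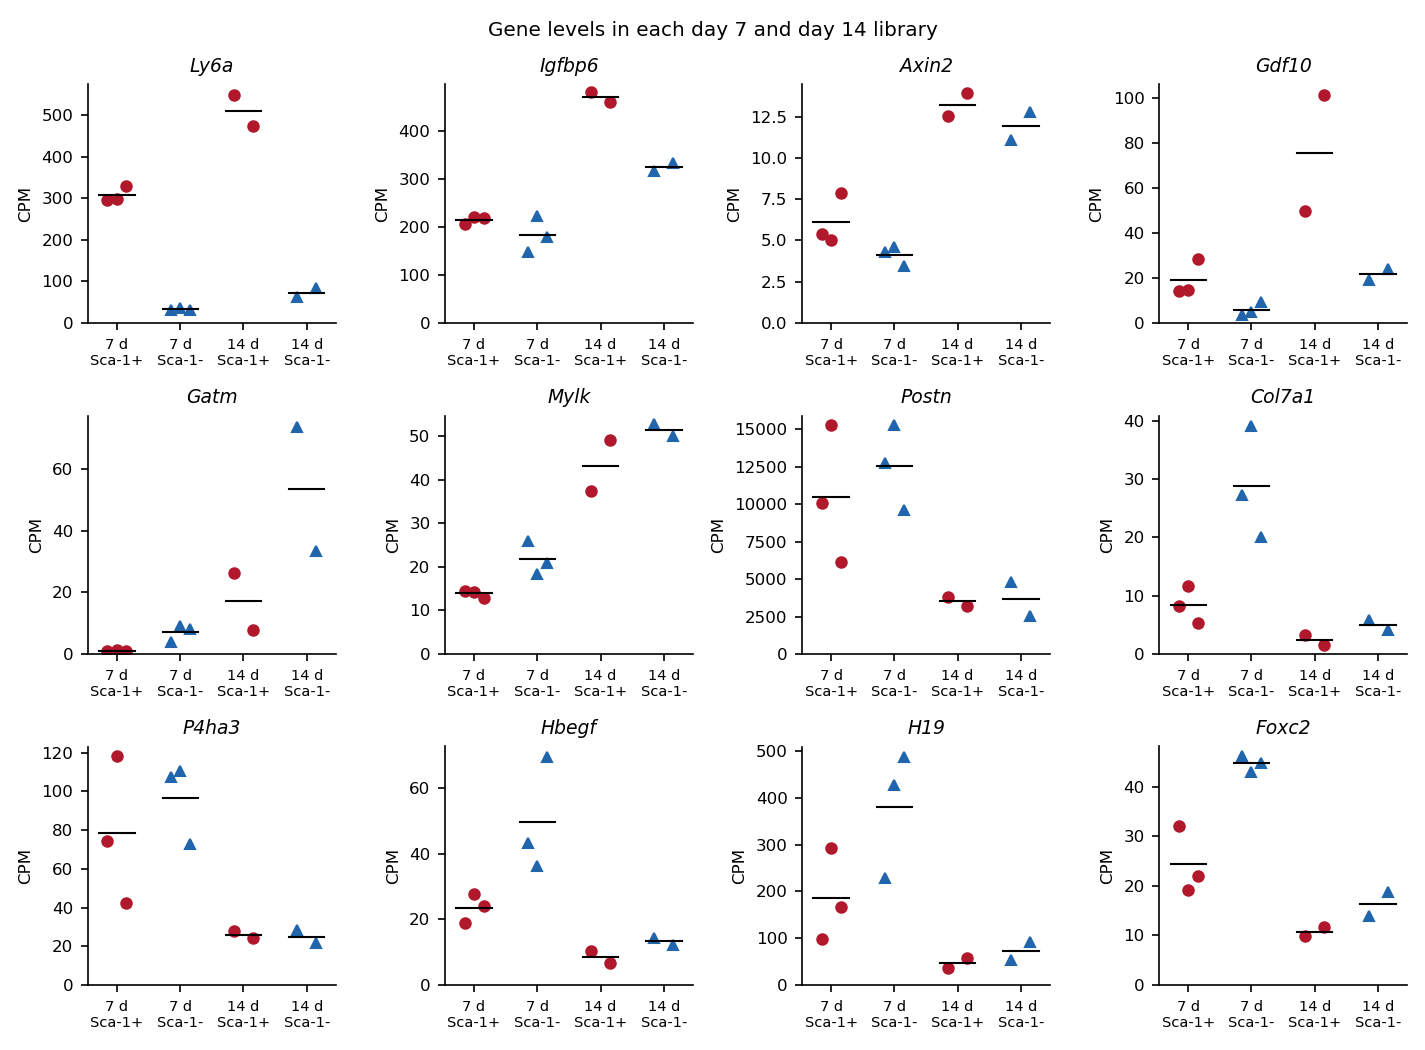
CPM (y axis, from 0) of 12 genes in each of the 10 libraries by day and gate (x axis). Red circles are Sca-1 positive and blue triangles Sca-1 negative libraries, and lines are group means. Ly6a to Mylk were higher at day 14 in both gates and Postn to Foxc2 lower, with no overlap between the days inside a gate.

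Among the genes that were lower at day 14, Col7a1, the collagen of anchoring fibrils (ENSMUSG00000025650.13, chromosome 9, 108953586 to 108984875), was at 8.27, 11.6 and 5.31 CPM in the positive and 27.3, 39.0 and 20.1 CPM in the negative libraries of day 7. Day 14 gave 3.23 and 1.51 CPM of Col7a1 in the positive and 5.91 and 4.04 CPM in the negative libraries. The days did not overlap inside a gate, and the difference was -2.25 ± 0.31 (adjusted p by edgeR = 0.0072, blocked 0.00759). P4ha3, a subunit of the prolyl hydroxylase that matures collagen (ENSMUSG00000051048.17, chromosome 7, 100285520 to 100319699), was at 74.5, 118 and 42.6 CPM in the positive and 108, 110.5 and 72.6 CPM in the negative libraries of day 7. The positive libraries of day 14 held 27.7 and 24.4 CPM and the negative ones 28.4 and 21.5 CPM. All day 14 libraries were below all day 7 libraries (-1.79 ± 0.25, adjusted p by edgeR = 0.0072, blocked 0.0152). Undamaged hearts held 0 to 3.60 CPM of P4ha3 and day 28 hearts 6.38 to 29.1, so the day 14 values lay above every undamaged library.

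Hbegf, a ligand of the EGF receptor, was at 18.8, 27.6 and 24.0 CPM in the positive and 43.1, 36.2 and 69.5 CPM in the negative libraries of day 7. Hbegf at day 14 was at 10.2 and 6.84 CPM in the positive and 14.3 and 12.3 CPM in the negative libraries. It was lower in all 4 day 14 libraries (-1.71 ± 0.22 log2, adjusted p by edgeR = 0.0072, blocked 0.0117). H19, a long imprinted RNA that is abundant in fetal tissue (ENSMUSG00000000031.16, chromosome 7, 142575529 to 142578143), was at 98.8, 293 and 166 CPM in the positive and 228, 428 and 487 CPM in the negative libraries of day 7. Day 14 gave 35.7 and 57.2 CPM of H19 in the positive and 52.6 and 91.5 CPM in the negative libraries. The days did not overlap in spite of a wide spread at day 7 (-2.22 ± 0.33, adjusted p by edgeR = 0.00975, blocked 0.0147). H19 was at 0 to 15.5 CPM in undamaged hearts and 2.38 to 14.2 at day 28, below every day 7 and day 14 library.

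Foxc2, a forkhead transcription factor of mesenchyme (ENSMUSG00000046714.7, chromosome 8, 121116171 to 121118895), was at 32.1, 19.2 and 22.1 CPM in the positive and 46.3, 43.1 and 44.9 CPM in the negative libraries of day 7. The positive libraries of day 14 held 9.88 and 11.6 CPM and the negative ones 13.9 and 18.7 CPM. It was lower in all day 14 libraries (-1.34 ± 0.16, adjusted p by edgeR = 0.00578, blocked 0.0117). The other lower genes of the 28 were Scube2, a secreted protein that aids hedgehog release (-1.62 ± 0.24), the small GTPase gene Rasl11b (-1.33 ± 0.19), Klhl29 (-1.17 ± 0.18), the ubiquitin ligase gene March3 (-1.14 ± 0.15), Gareml (-2.70 ± 0.32) and D8Ertd82e (-1.74 ± 0.24). Scube2 was at 6.14, 5.62 and 2.92 CPM (positive) and 43.3, 30.3 and 36.2 CPM (negative) at day 7 and 1.51 and 2.29 CPM (positive) and 12.3 and 8.41 CPM (negative) at day 14. Inside each gate day 14 was lower, while the day 14 negative libraries exceeded the day 7 positive ones.

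In the list of 21 collagens, 6 fell, 0 rose and 20 had values below 0, where 1.12% of all genes tested were lower. The list median was -0.79 log2 against -0.004 over all genes. Col6a5, a collagen VI chain outside the list that is described further on, was called higher (3.48 ± 0.67). Beside Col7a1 the 6 that fell were Col11a1 (-2.27 ± 0.51), Col8a2 (-1.20 ± 0.23), Col16a1 (-1.05 ± 0.20), Col5a2 (-1.03 ± 0.24) and Col27a1 (-0.99 ± 0.21). These 5 calls, at adjusted p between 0.0215 and 0.0483 by edgeR, ended with the pair as a random effect (adjusted p between 0.0575 and 0.0965) and in 4 to 13 of the 15 leave-out fits. Each of them ended without pair D9, where the adjusted p by edgeR ran from 0.0611 for Col27a1 to 0.24 for Col11a1. The main fibrillar collagen gene Col1a1 was at 26890, 30730 and 20890 CPM (positive) and 33370, 40610 and 32040 CPM (negative) at day 7 and 18680 and 15340 CPM (positive) and 24900 and 12280 CPM (negative) at day 14. It did not pass (-0.79 ± 0.22, adjusted p = 0.0838). Its day 14 libraries lay below day 7 inside each gate, and undamaged hearts held 3060 to 4658 CPM.

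In collagen processing 5 of 23 members fell and 0 rose (median -0.32), where 1.12% of all genes tested were lower. P4ha3 led them, and Lox, which crosslinks collagen (-1.26 ± 0.30), its relative Loxl3 (-1.37 ± 0.29) and the lysyl hydroxylases Plod1 (-0.53 ± 0.12) and Plod3 (-0.67 ± 0.15) followed. The last 4 had adjusted p between 0.0331 and 0.0486 by edgeR, were not called with the pair as a random effect (0.0597 to 0.107) and lost their calls in 11 to 13 of 15 leave-out fits.

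Genes of activated fibroblasts fell in 7 of 22 cases, with 0 higher and a median of -0.74, where 1.12% of all genes tested were lower. Postn, the matricellular protein periostin and the classic marker of activated cardiac fibroblasts (ENSMUSG00000027750.16, chromosome 3, 54361109 to 54391037), was at 10090, 15270 and 6147 CPM in the positive and 12730, 15240 and 9575 CPM in the negative libraries of day 7. Postn at day 14 was at 3815 and 3190 CPM in the positive and 4802 and 2549 CPM in the negative libraries. All day 14 libraries were below all day 7 libraries. The difference was -1.69 ± 0.28 (adjusted p by edgeR = 0.0125, blocked 0.019), and the call was lost without the uncoded pair (adjusted p 0.0587) and without pair D9 (adjusted p 0.0709). Postn was at 378 to 2040 CPM in undamaged hearts, so each day 14 library still exceeded every undamaged one. Cthrc1, a secreted protein of scar fibroblasts, was at 404, 539.9 and 211 CPM (positive) and 709, 799 and 353 CPM (negative) at day 7 and 204 and 72.0 CPM (positive) and 221 and 239 CPM (negative) at day 14. No day 14 library of a gate reached the day 7 range of that gate. Its value was -1.47 ± 0.34 (adjusted p by edgeR = 0.0426), but 0.0748 with the pair as a random effect, and it was not called in 11 of 15 leave-out fits.

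Meox1, a homeobox factor of activated fibroblasts, fell by 0.70 (adjusted p by edgeR = 0.0192, blocked 0.0426) and lost the call without D9 negative (adjusted p 0.0551), without D9 positive (adjusted p 0.0515), without the uncoded pair (adjusted p 0.0608) and without pair D9 (adjusted p 0.146). Ddah1 (-2.02 ± 0.42), Kif26b (-1.73 ± 0.37), the adhesion molecule N-cadherin gene Cdh2 (-1.28 ± 0.31) and the growth factor Ptn (-0.94 ± 0.18) were also lower, the last 2 without a call when blocked (0.0507 and 0.0564). All 4 lost their calls in 6 to 12 of the leave-out fits. Fn1, the gene of fibronectin, was at 8518, 13750 and 5097 CPM (positive) and 16890, 18720 and 10110 CPM (negative) at day 7 and 5251 and 5747 CPM (positive) and 10230 and 2591 CPM (negative) at day 14. It was not called (adjusted p = 0.173), nor was Acta2, the smooth muscle actin of myofibroblasts (-0.77 ± 0.43, 0.346). In the negative gate the D1 library held more Acta2 (255 CPM) than 2 of the 3 day 7 libraries. Of 19 contractile genes 0 were called by edgeR, and the median was -0.16.

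Matrifibrocyte genes, which encode matrix of cartilage, tendon and bone and mark cells of a mature scar, had 4 of 23 lower and 0 higher (median -0.28). All 4 encode proteins of cartilage matrix, and 1.12% of all genes tested were lower. Col9a2, a chain of collagen IX, was at 29.6, 12.4 and 7.63 CPM (positive) and 84.1, 37.5 and 57.3 CPM (negative) at day 7 and 1.66 and 5.40 CPM (positive) and 6.73 and 7.56 CPM (negative) at day 14. It was lower in every day 14 library (-2.64 ± 0.44, adjusted p by edgeR = 0.0132, blocked 0.0166), with the call lost without the uncoded pair (adjusted p 0.0508) and without pair D1 (adjusted p 0.0688). Matn4 fell by 1.24 (0.0169, blocked 0.0437) and lost the call without D9 negative (adjusted p 0.052), without the uncoded pair (adjusted p 0.0539) and without pair D9 (adjusted p 0.124). Col2a1 (-4.13 ± 0.85) and Col11a2 (-1.66 ± 0.38) were not called when blocked (0.063 and 0.19) and were lost in 11 and 13 leave-out fits. The list's members Comp (-0.55 ± 0.50, adjusted p = 0.595), Chad (-0.16 ± 0.79, 0.943) and Cilp2 (0.71 ± 0.47, 0.436) did not pass. Comp was at 1152, 776 and 218 CPM (positive) and 1693, 945 and 482 CPM (negative) at day 7 and 817 and 273 CPM (positive) and 987 and 318 CPM (negative) at day 14. The days overlapped in both gates.

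**Figure D3:**
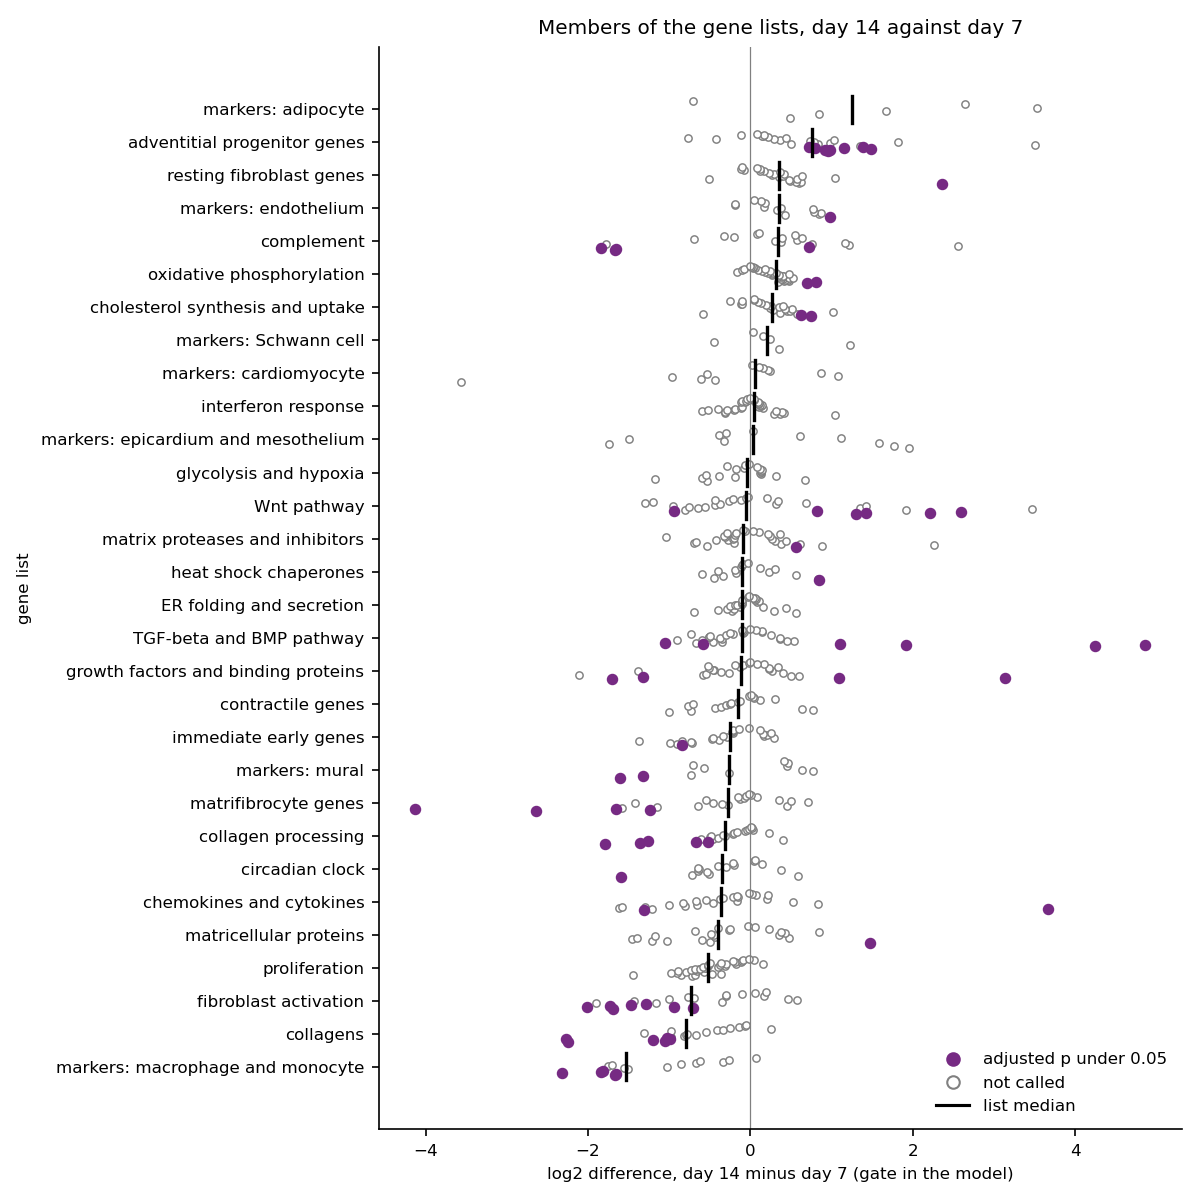
Log2 difference of day 14 minus day 7 with the gate in the model (x axis) for the members of 30 gene lists (y axis, ordered by list median). Filled points had an adjusted p under 0.05, open points did not, and black bars are medians, from 1.26 in adipocyte markers (0 called) to -1.53 in macrophage markers (5 called lower).

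Genes of adventitial progenitors, fibroblasts of vessel walls and fascia, were higher at day 14 in 8 of 30 cases and lower in 0. Of the values 27 were above 0, the median was 0.76, and 1.49% of all genes tested were higher. The called members were Igfbp6, Ly6a, Ly6c1, Efhd1, Sema3c, Cd248, Emilin2 and Cd55. Sema3c, a secreted semaphorin, was at 122, 125 and 186 CPM in the positive and 30.1, 20.4 and 48.2 CPM in the negative libraries of day 7. Day 14 gave 239.6 and 450.0 CPM of Sema3c in the positive and 61.2 and 80.3 CPM in the negative libraries. Inside each gate the days did not overlap, and the difference was 1.16 ± 0.24 (adjusted p by edgeR = 0.0308, blocked 0.0491), not called in 8 of 15 leave-out fits. Ly6c1, a relative of Ly6a that can share reads with it, rose by 0.98 ± 0.15 (0.00975, blocked 0.0396) and Efhd1 by 1.49 ± 0.25 (0.0132, blocked 0.0491). Their calls were lost without the uncoded pair (adjusted p 0.0578) for Ly6c1, and without the uncoded pair (adjusted p 0.0621) and without pair D9 (adjusted p 0.0702) for Efhd1.

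Cd248, a stromal surface protein, was at 368, 391 and 416 CPM (positive) and 174, 185 and 135 CPM (negative) at day 7 and 648 and 1055 CPM (positive) and 246 and 222 CPM (negative) at day 14. Its higher values were in the positive gate. Cd248 (0.80 ± 0.17), the elastic fibre protein gene Emilin2 (1.38 ± 0.33) and the complement inhibitor Cd55 (0.73 ± 0.17) had adjusted p between 0.0331 and 0.0486 by edgeR. None of these 3 was called when blocked (0.11, 0.0861 and 0.11), and each lost its call in 11 or 13 of the leave-out fits. Dpp4, a surface peptidase of this group, was at 15.6, 31.7 and 48.0 CPM (positive) and 2.14, 7.93 and 6.68 CPM (negative) at day 7 and 59.1 and 92.9 CPM (positive) and 8.62 and 9.27 CPM (negative) at day 14. It did not pass (0.98 ± 0.34, adjusted p = 0.139). Members of this list such as Cd248 and Dpp4 also differ between the gates, the place of the SCA-1 gate at each day is not given in the sources used here, and its part in the result was not tested.

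Genes of resting cardiac fibroblasts had 1 of 24 higher and 0 lower, with 20 values above 0 and a median of 0.35, where 1.49% of all genes tested were higher. The called gene was Tbx5, a T-box factor, at 0.621, 1.12 and 3.85 CPM (positive) and 0.665, 1.03 and 1.11 CPM (negative) at day 7 and 9.58 and 8.64 CPM (positive) and 5.10 and 5.40 CPM (negative) at day 14. Every day 14 library was above every day 7 library (2.36 ± 0.39, adjusted p by edgeR = 0.0132, blocked 0.0157). The Tbx5 call was lost without pair D9 (adjusted p 0.0555). The lung marker sum described further on was also higher in all 4 day 14 libraries (44.1 to 64.1 against 6.69 to 18.1 CPM). The lung list was made after the values were seen, and the part of the sum in the Tbx5 difference was not tested. Dermatopontin, encoded by Dpt (0.56 ± 0.16, adjusted p = 0.0797), the homeobox gene Meox2 (0.60 ± 0.15, 0.0592) and the epicardial lineage factor Tcf21 (0.17 ± 0.19, 0.667) did not pass. Neither did Pdgfra (0.23 ± 0.15, 0.433) or Hic1, a repressor that marks quiescent stromal progenitors (0.12 ± 0.28, 0.866). Bulk libraries cannot tell fewer cells of a type from less RNA per cell, here and in every result on a cell type's genes.

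In the Wnt pathway list, 5 of 29 members rose and 1 fell (median -0.05), against 1.49% and 1.12% of all genes tested. Among ligands, Wnt5a, a ligand of non-canonical signalling, was at 14.8, 14.8 and 20.5 CPM (positive) and 21.1, 18.2 and 26.7 CPM (negative) at day 7 and 38.3 and 63.0 CPM (positive) and 70.9 and 36.5 CPM (negative) at day 14. It was higher in all day 14 libraries (1.43 ± 0.21, adjusted p by edgeR = 0.00975, blocked 0.0426) and not called without the uncoded pair (adjusted p 0.0508). Rspo3, which amplifies Wnt signals at the receptor, was at 0.0689, 1.07 and 0.796 CPM (positive) and 0.369, 1.27 and 1.58 CPM (negative) at day 7 and 6.36 and 4.74 CPM (positive) and 5.86 and 3.71 CPM (negative) at day 14. It was also higher in all day 14 libraries (2.60 ± 0.49, 0.0222), although not when blocked (0.0576) or in 4 of 15 leave-out fits. Of receptors, Fzd5 fell (-0.94 ± 0.19, adjusted p by edgeR = 0.0296, blocked 0.0624, lost in 11 leave-out fits).

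Of secreted Wnt inhibitors, Sfrp4 was at 7.38, 4.27 and 17.4 CPM (positive) and 2.51, 5.87 and 4.45 CPM (negative) at day 7 and 63.9 and 44.7 CPM (positive) and 21.5 and 11.5 CPM (negative) at day 14, with 2.21 ± 0.36 log2 (adjusted p by edgeR = 0.0125, blocked 0.0188). The Sfrp4 call was lost without the uncoded pair (adjusted p 0.0643) and without pair D1 (adjusted p 0.0544). Wif1 was at 0, 0.618 and 0 CPM (positive) and 0, 1.90 and 0 CPM (negative) at day 7 and 1.72 and 1.34 CPM (positive) and 5.15 and 15.2 CPM (negative) at day 14. It did not pass (3.46 ± 0.90, adjusted p = 0.0657). In undamaged hearts Wif1 was at 3.25 to 224 CPM and at day 28 at 0 to 0.455. Of the feedback targets, Nkd1 rose with Axin2 (0.82 ± 0.16, adjusted p by edgeR = 0.0222, blocked 0.0437, lost in 5 leave-out fits).

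In the TGF-beta and BMP list, 4 of 33 members rose and 2 fell (median -0.10), against 1.49% and 1.12% of all genes tested. Among those that rose were the BMP family ligand Gdf10 and the BMP antagonists Grem1 and Chrdl1. Grem1 was at 0, 0 and 0.133 CPM (positive) and 0, 0 and 0 CPM (negative) at day 7 and 1.06 and 0.393 CPM (positive) and 1.27 and 0.796 CPM (negative) at day 14. This is near the floor at day 7, so its fitted value is no measure of size, and it was not called when blocked (0.0648). Chrdl1, a chordin-like BMP antagonist, was at 2.96, 4.95 and 4.31 CPM (positive) and 4.51, 7.69 and 2.88 CPM (negative) at day 7 and 11.2 and 9.04 CPM (positive) and 11.01 and 8.41 CPM (negative) at day 14 (1.11 ± 0.25, adjusted p by edgeR = 0.0412, blocked 0.0713). The ligand gene Gdf6 (-1.05 ± 0.25, 0.0463, blocked 0.0598) and the activin inhibitor Fstl3 (-0.58 ± 0.13, 0.0408, blocked 0.0785) fell. Calls were lost in 5 of 15 leave-out fits for Grem1, 13 for Chrdl1, 11 for Gdf6 and 12 for Fstl3.

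The list of 28 growth factors and binding proteins had 2 higher and 2 lower (median -0.11), against 1.49% and 1.12% of all genes tested. Fgf1 and Igfbp6, described above as higher, were not on this list. Beside Fgf10, the epithelial growth factor Fgf7 was at 13.0, 12.3 and 17.4 CPM (positive) and 8.13, 8.33 and 9.64 CPM (negative) at day 7 and 37.1 and 36.5 CPM (positive) and 12.0 and 19.1 CPM (negative) at day 14 (1.10 ± 0.17, adjusted p by edgeR = 0.0105, blocked 0.0227). The Fgf7 call was lost without the uncoded pair (adjusted p 0.0578) and without pair D9 (adjusted p 0.0759). Beside Hbegf, the lipase inhibitor Angptl4 was at 298, 194 and 123 CPM (positive) and 193, 186 and 136 CPM (negative) at day 7 and 107 and 58.4 CPM (positive) and 84.0 and 54.3 CPM (negative) at day 14. It was lower in all day 14 libraries (-1.33 ± 0.26, 0.0225, blocked 0.0396). The Angptl4 call was lost in 6 leave-out fits. Of 23 matricellular proteins 1 rose, Nov, a CCN family protein at 60.0, 52.2 and 67.7 CPM (positive) and 73.2, 26.7 and 29.0 CPM (negative) at day 7 and 159 and 171 CPM (positive) and 157 and 90.5 CPM (negative) at day 14 (1.47 ± 0.26, 0.0169, blocked 0.0396). The Nov call was lost without pair D1 (adjusted p 0.0669). Its family member Ctgf (-1.21 ± 0.32, adjusted p = 0.0682) and Thbs1 (-1.02 ± 0.27, 0.0647) did not pass.

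Proliferation genes had 0 of 37 called by edgeR, while 35 of 37 values were below 0 and the median was -0.52. The mitotic transcription factor Foxm1 was at 7.79, 6.69 and 6.83 CPM (positive) and 9.83, 6.98 and 7.42 CPM (negative) at day 7 and 3.93 and 5.42 CPM (positive) and 5.40 and 3.98 CPM (negative) at day 14 (-0.71 ± 0.18, adjusted p = 0.0619). Ccne1, the cyclin of S phase entry, was at 2.96, 1.91 and 2.25 CPM (positive) and 3.10, 1.82 and 3.90 CPM (negative) at day 7 and 1.61 and 0.889 CPM (positive) and 0.714 and 0.796 CPM (negative) at day 14 (-1.44 ± 0.37, 0.0629). These were the 2 members whose day 14 libraries lay below every day 7 library, where 1.82% of all genes tested did so. Mki67, which marks dividing cells, was at 12.6, 18.4 and 7.495 CPM (positive) and 15.7, 24.7 and 14.3 CPM (negative) at day 7 and 6.36 and 12.8 CPM (positive) and 17.7 and 6.58 CPM (negative) at day 14 (-0.52 ± 0.32, 0.401). Its days overlapped in both gates. The mitotic kinase Plk1 (-0.86 ± 0.31, 0.158) and the topoisomerase Top2a (-0.79 ± 0.32, 0.195) did not pass either.

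The promoters of Plk1, Top2a, Mki67 and Ccne1 are shown because nearly all values of the list lay below 0, with no call, and mitotic genes are known to share promoter elements. They run from 250 bases before to 50 after the start in RefSeq (GRCm38.p6), 5′ to 3′ on the gene's strand. Capitals mark TTTGAA, the core of the cell cycle genes homology region, and CCAAT, the box bound by NF-Y, on either strand. No matches shown here share a base. The regions are chr7:122159185-122159484 on the plus strand for Plk1, and chr11:99024140-99024439, chr7:135716330-135716629 and chr7:38107441-38107740 on the minus strand for Top2a, Mki67 and Ccne1.
Plk1: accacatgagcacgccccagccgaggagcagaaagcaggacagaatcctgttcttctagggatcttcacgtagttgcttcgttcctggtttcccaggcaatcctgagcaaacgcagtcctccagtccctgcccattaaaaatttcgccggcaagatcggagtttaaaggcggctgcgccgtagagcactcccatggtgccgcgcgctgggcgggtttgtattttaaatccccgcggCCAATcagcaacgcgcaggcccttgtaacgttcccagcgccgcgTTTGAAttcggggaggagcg
Top2a: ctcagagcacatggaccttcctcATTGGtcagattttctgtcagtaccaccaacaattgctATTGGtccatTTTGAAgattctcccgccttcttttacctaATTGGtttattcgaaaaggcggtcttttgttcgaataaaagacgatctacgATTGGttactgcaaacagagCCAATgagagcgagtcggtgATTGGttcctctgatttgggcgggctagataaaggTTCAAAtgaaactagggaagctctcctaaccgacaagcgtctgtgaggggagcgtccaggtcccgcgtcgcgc
Mki67: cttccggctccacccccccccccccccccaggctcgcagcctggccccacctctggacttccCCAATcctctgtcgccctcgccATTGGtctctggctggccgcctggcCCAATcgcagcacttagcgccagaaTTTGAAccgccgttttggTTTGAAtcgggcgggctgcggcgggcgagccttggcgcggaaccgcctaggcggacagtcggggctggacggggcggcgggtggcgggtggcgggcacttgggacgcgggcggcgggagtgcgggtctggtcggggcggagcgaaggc
Ccne1: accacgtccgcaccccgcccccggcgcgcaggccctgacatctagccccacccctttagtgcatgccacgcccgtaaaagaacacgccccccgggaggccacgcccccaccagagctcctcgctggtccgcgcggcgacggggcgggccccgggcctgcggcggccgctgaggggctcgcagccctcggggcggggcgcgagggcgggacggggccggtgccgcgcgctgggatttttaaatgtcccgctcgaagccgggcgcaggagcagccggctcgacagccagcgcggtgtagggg

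Plk1 holds 1 match to each motif, Mki67 holds 2 of TTTGAA and 3 of CCAAT, Top2a holds 2 and 6, and Ccne1 holds 0 of either. Of the 37 proliferation genes 30 matched a RefSeq promoter, and 17 of these (56.7%) held TTTGAA and 26 (86.7%) CCAAT, against 20.2% and 41.1% of 27025 genes with promoters of this length. Of the interferon genes, 28 of 36 matched, and 16 (57.1%) held 2 GAAA runs separated by 2 bases on either strand, the core of the interferon-stimulated response element, against 3.99% of all. That list had 0 of 36 called by edgeR and a median of 0.04. A match describes these letters and is no evidence of binding.

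Chemokine and cytokine genes had 1 higher and 1 lower of 26 (median -0.36), against 1.49% and 1.12% of all genes tested. Cx3cl1, the ligand of the macrophage receptor CX3CR1, was at 146, 123 and 78.5 CPM (positive) and 201, 156 and 153 CPM (negative) at day 7 and 55.4 and 38.0 CPM (positive) and 86.4 and 55.5 CPM (negative) at day 14. It was lower inside both gates (-1.31 ± 0.20, adjusted p by edgeR = 0.00975, blocked 0.0152). The Cx3cl1 call was lost without pair D9 (adjusted p 0.061). Cxcl13, a B cell attractant, was at 0, 2.13 and 9.22 CPM (positive) and 0.222, 1.75 and 4.54 CPM (negative) at day 7 and 114 and 22.7 CPM (positive) and 19.8 and 15.2 CPM (negative) at day 14 (3.67 ± 0.79, 0.0337). It was not called when blocked (0.12) or in 9 of 15 leave-out fits, and its highest value came from the D1 positive library. Complement genes had 1 higher, Cd55, and 3 lower of 20 (median 0.34). The 3 lower were C1qa, C1qb and C1qc, subunits of C1q, which macrophages make in most tissues.

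Markers of macrophages and monocytes had 5 of 16 lower and 0 higher. Of the values 15 were below 0, the median was -1.53, and 1.12% of all genes tested were lower. The summed list was at 44.3 to 95.1 CPM at day 7 and 18.3 to 37.6 at day 14, without overlap. C1qa was at 3.10, 4.83 and 3.38 CPM (positive) and 3.03, 7.38 and 4.08 CPM (negative) at day 7 and 1.51 and 1.12 CPM (positive) and 1.32 and 1.51 CPM (negative) at day 14 (-1.66 ± 0.30, adjusted p by edgeR = 0.0191, blocked 0.043). The C1qa call was lost without D1 negative (adjusted p 0.0536), without D9 negative (adjusted p 0.0532), without D9 positive (adjusted p 0.0534), without pair D1 (adjusted p 0.0727) and without pair D9 (adjusted p 0.129). Ctss (-2.33 ± 0.47), C1qb (-1.65 ± 0.32), C1qc (-1.84 ± 0.38) and Adgre1 (-1.81 ± 0.43) were not called when blocked (adjusted p 0.0594 to 0.125). They lost their calls in 8, 6, 10 and 15 of 15 leave-out fits. The defining markers Ptprc (-1.70 ± 0.59, adjusted p = 0.147) and Csf1r (-0.67 ± 0.37, 0.344) did not pass. The sort left out CD45 positive cells, the levels that remained were low, and their part in the differences of other secreted factors was not tested.

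Of mural markers, from pericytes and vascular muscle, 2 of 11 were lower: Mcam at 8.83, 8.54 and 5.97 CPM (positive) and 21.3, 18.0 and 11.9 CPM (negative) at day 7 and 3.73 and 2.895 CPM (positive) and 5.50 and 3.54 CPM (negative) at day 14 (-1.61 ± 0.24, adjusted p by edgeR = 0.00975, blocked 0.0147), lost without pair D9 (adjusted p 0.0554), and Cspg4 (-1.32 ± 0.28, 0.0327), not called when blocked (0.0594) and in 12 leave-out fits. The defining markers Rgs5 (3.18 to 12.3 and 4.30 to 8.51 CPM) and Kcnj8 (3.93 to 13.6 and 7.71 to 10.7) overlapped between days. The mural sum was at 493.5, 514.9 and 516.8 CPM (positive) and 669.3, 735.8 and 723.1 CPM (negative) at day 7. At day 14 the mural sum was lower, at 417.5 and 453.9 CPM (positive) and 624.8 and 560.4 CPM (negative), with no overlap inside a gate. Endothelial markers had 1 of 14 higher, Ly6c1, which the adventitial list also holds, with 12 values above 0 and a median of 0.35. Over all genes tested 1.49% were higher and 1.12% lower. The endothelial sum, which includes Ly6c1, was at 301, 299 and 295 CPM (positive) and 168, 170 and 180 CPM (negative) at day 7. At day 14 it was at 468 and 416 CPM (positive) and 280 and 240.4 CPM (negative), with no overlap inside a gate. Cdh5 was at 4.08 to 7.81 and 6.20 to 9.85 CPM. Among 6 adipocyte markers tested 0 were called (median 1.26). The summed adipocyte list was at 561 to 837 CPM at day 7 and 862 to 1114 at day 14, without overlap. In D1 positive the lipase gene Lpl alone gave 815 of the 862 CPM, and Lpl was not called (0.49 ± 0.14, adjusted p by edgeR = 0.0812). Adipoq was at 0, 0 and 1.73 CPM (positive) and 0, 0 and 0 CPM (negative) at day 7 and 0.202 and 3.64 CPM (positive) and 0 and 7.26 CPM (negative) at day 14. Its larger values were in pair D9. Cardiomyocyte (12 tested), Schwann cell (6), epicardial (11), erythroid (1) and neutrophil and mast cell markers (1) had 0 called by edgeR.

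Several of the higher genes at day 14 are known for patterning of the lung and its mesenchyme, among them Tbx4 and Fgf10. A list of 15 lung markers was therefore made after the values were seen. Of 9 tested, 4 were higher and 0 lower, namely Tbx4, Hoxb5, Npnt and Hoxa5, where 1.49% of all genes tested were higher. Tbx4 prompted the list and is one of the 4, so the count restates it in part and is given as a description. Tbx4 (ENSMUSG00000000094.12, chromosome 11, 85886422 to 85916097) was at 0.138, 0.0562 and 0 CPM (positive) and 0.222, 0.952 and 0.371 CPM (negative) at day 7 and 4.08 and 7.46 CPM (positive) and 5.76 and 6.80 CPM (negative) at day 14, and 0.373 to 3.70 in undamaged hearts. Hoxa5, a homeobox gene of lung mesenchyme, was at 0, 1.18 and 2.59 CPM (positive) and 0.222, 4.36 and 2.97 CPM (negative) at day 7 and 15.5 and 14.1 CPM (positive) and 19.5 and 9.69 CPM (negative) at day 14 (3.02 ± 0.64, adjusted p by edgeR = 0.0331, blocked 0.0708), and at 0 to 0.740 in undamaged hearts and 0.911 to 2.63 at day 28. Its calls were lost in 8 of 15 leave-out fits, those of Npnt in 4 and those of Hoxb5 in 2.

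The summed lung list was at 6.69 to 18.1 CPM at day 7 and 44.1 to 64.1 at day 14, without overlap. The list was made after the values were seen and the sum holds its called members, so this is a description and no separate result. Among epithelial genes, Sftpc, the surfactant protein C of alveolar cells, was at 0 in all day 7 libraries and at 7.41 CPM in D1 positive, 1.75 in D9 negative, 0.102 in D1 negative and 0 in D9 positive. Nkx2-1, the lung epithelial factor, was at 0 in 9 of the 10 libraries and 0.0504 CPM in D1 positive. Fgf10, Tbx5, Wnt5a and the lung sum were each higher in all 4 day 14 libraries, so they share the day and nothing more is read from it. Gdf10 was higher at day 14 inside each gate only. In undamaged hearts mean Gdf10 was at 36.8 CPM (positive) and 38.7 CPM (negative), and mean Fgf10 at 11.1 and 4.21 CPM. The part of lung cells or their RNA in these differences between the days was not tested.

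**Figure D4:**
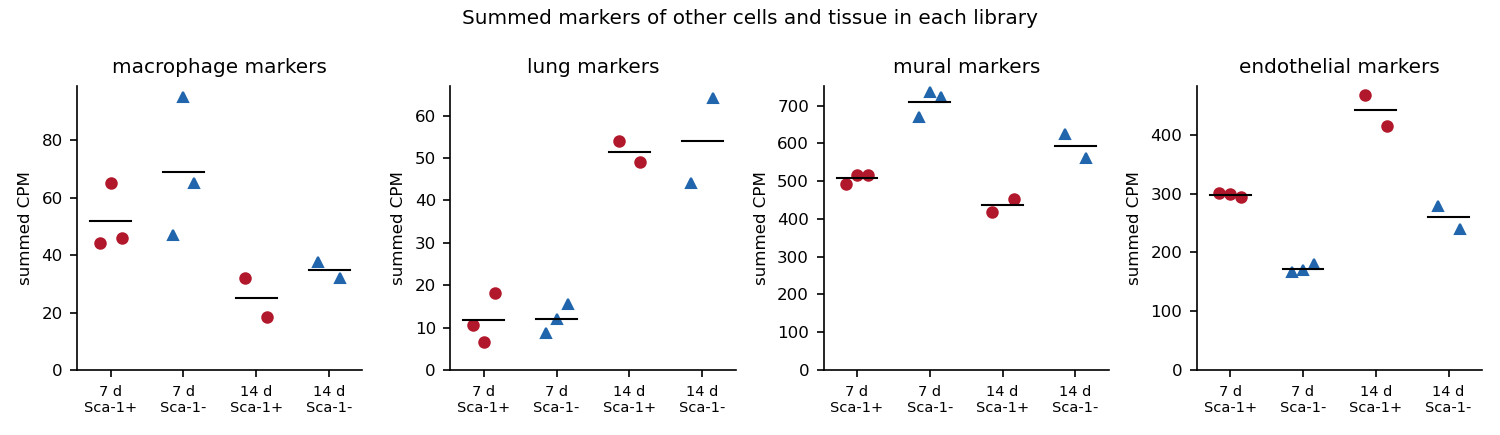
Summed CPM (y axis, from 0) of markers of macrophages, lung, mural cells and endothelium in each library by day and gate (x axis). Red circles are Sca-1 positive and blue triangles Sca-1 negative libraries, and lines are group means. Macrophage sums are lower and lung sums, from a list made after the values were seen, higher in all 4 day 14 libraries. Mural sums are lower and endothelial sums higher at day 14 inside each gate, and both also follow the gate.

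Metabolic lists had few calls, and 1.49% of all genes tested were higher. Oxidative phosphorylation genes had 2 of 35 higher, with 32 above 0 and a median of 0.31. They were the complex I subunit Ndufb9 (0.69 ± 0.14, adjusted p by edgeR = 0.0246, blocked 0.094) and Ndufa4 (0.80 ± 0.16, 0.0296, blocked 0.106), lost in 7 and 9 leave-out fits. Cholesterol synthesis genes had 2 of 24 higher (median 0.27), Sc5d (0.74 ± 0.16, blocked adjusted p 0.0648) and Msmo1 (0.62 ± 0.14, 0.13), lost in 10 and 13 leave-out fits. Of 20 glycolysis and 25 protein folding genes 0 were called by edgeR (medians -0.04 and -0.10). Of matrix proteases 1 of 29 was higher, Htra1 (0.56 ± 0.13, blocked 0.0981, lost in 13 leave-out fits).

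Among early response genes, Egr2 was lower (1 of 24, -0.84 ± 0.16, adjusted p by edgeR = 0.0243, blocked 0.0499, lost in 8 leave-out fits). Of all genes tested 1.12% were lower and 1.49% higher. Of 16 chaperones Hspa1a was higher (0.84 ± 0.18, blocked 0.0679, lost in 11), and its near-identical copy Hspa1b, with which it can share reads, was not called (0.83 ± 0.21, 0.0619). Of 16 clock genes Per2, a repressor of the circadian clock, was lower. It was at 17.9, 21.7 and 34.6 CPM (positive) and 15.7, 19.4 and 29.5 CPM (negative) at day 7 and 6.81 and 5.96 CPM (positive) and 9.89 and 8.76 CPM (negative) at day 14. It was below day 7 in every day 14 library (-1.60 ± 0.25, adjusted p by edgeR = 0.0105, blocked 0.0188). The Per2 call was lost without pair D9 (adjusted p 0.0649). The time of day of collection is not given in the sources used here.

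Of the genes with the largest fitted differences, several lost their calls when a library or pair was left out. Col6a5, a collagen VI chain, was at 15.9, 49.3 and 73.0 CPM (positive) and 13.2, 30.9 and 57.2 CPM (negative) at day 7 and 998 and 86.8 CPM (positive) and 610.1 and 117 CPM (negative) at day 14. It was far higher in pair D1 than in pair D9 (3.48 ± 0.67, adjusted p by edgeR = 0.0227, blocked 0.0517). Ptger3, a prostaglandin E receptor (3.40 ± 0.74, blocked 0.357), and Chil1, a secreted chitinase-like protein (2.69 ± 0.62, blocked 0.182), were likewise highest in pair D1. Ptprn was lower, at 13.4, 17.7 and 9.68 CPM (positive) and 14.8, 40.7 and 18.9 CPM (negative) at day 7 and 2.12 and 1.51 CPM (positive) and 8.51 and 0.796 CPM (negative) at day 14 (-2.71 ± 0.54, adjusted p by edgeR = 0.0273, blocked 0.0218). Their calls were lost in 7, 10, 10 and 8 of the 15 leave-out fits. Tmeff2 rose (2.56 ± 0.50, blocked 0.0905, lost in 8 fits), as did Ugt1a6a (2.03 ± 0.40, blocked 0.0476, lost in 6). Nkain4 rose by 2.83 ± 0.50 (blocked 0.064) and lost the call without the uncoded pair (adjusted p 0.0649) and without pair D1 (adjusted p 0.0899). Megf6 (-2.08 ± 0.34, blocked 0.0564), Gcnt4 (-2.02 ± 0.34, 0.0147) and Kcnj15, a potassium channel gene (-1.80 ± 0.29, 0.0157), fell. Their calls were lost without the uncoded pair (adjusted p 0.0534) and without pair D1 (adjusted p 0.0727) for Megf6, without the uncoded pair (adjusted p 0.0644) and without pair D9 (adjusted p 0.0882) for Gcnt4 and without the uncoded pair (adjusted p 0.0587) and without pair D9 (adjusted p 0.0788) for Kcnj15.

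The second question was whether the days differed inside each gate. In the Sca-1 positive libraries (2 against 3), edgeR called 2 genes, both higher (0.0149% of 13467, and 1017 at an unadjusted p under 0.05). They were Mylk (1.62 ± 0.18, adjusted p = 0.0223) and Tbx4 (6.37 ± 0.75, 0.0223), and both were named after their values were seen. Tbx4 was below 3 counts in each day 7 positive library, so its fitted value there is no measure of size. DESeq2 called 112 and limma-voom 1. In the Sca-1 negative libraries edgeR called 0 genes (0%, and 1370 at an unadjusted p under 0.05), DESeq2 182, limma-voom 0, and limma-voom with the pair as a random effect 11. Each contrast had 2 libraries at day 14 and took its spread from all 10.

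The days were therefore compared between the gates directly. For the difference of the 2 contrasts, edgeR called 0 genes (0%, and 99 at an unadjusted p under 0.05), DESeq2 1 and limma-voom 0. Among named genes, Postn had -1.60 ± 0.41 among positive and -1.79 ± 0.41 among negative libraries (difference 0.19 ± 0.55). The difference was -0.42 ± 0.25 for Ly6a and 0.31 ± 0.26 for Igfbp6, and none of these 3 passed (adjusted p by edgeR = 1 each). The list medians inside the positive and negative gates were 0.69 and 0.60 for adventitial, -0.64 and -0.95 for collagen, -0.76 and -0.74 for activation and -0.38 and -0.64 for proliferation genes. None of these list differences between gates was tested.

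**Figure D5:**
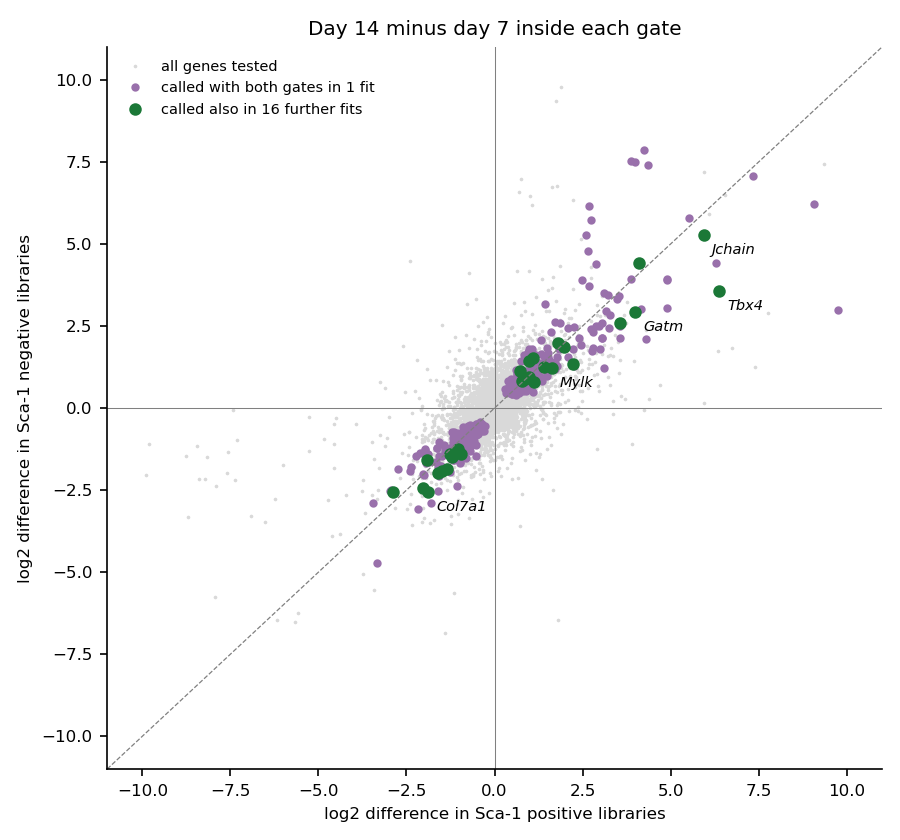
Log2 difference of day 14 minus day 7 in the Sca-1 positive (x axis) and Sca-1 negative libraries (y axis) for each of 13467 genes tested. Purple points are the other called genes, green points the 28 called also in the 15 leave-out fits and with the pair as a random effect, and the dashed line marks equal values. All 352 called genes have the same sign on both axes, as 74.0% of all genes tested do.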

How the data were processed

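RNA of sorted nuclear-GFP+ cells was sequenced as paired-end, stranded mRNA libraries, per the labels' protocols. The deposited files hold raw counts per gene, made by the authors. The submitters' processing notes name bcl2fastq, TopHat, Bowtie2, STAR, Cufflinks and the build mm10. The counting program, its strand setting and the annotation are not given in the sources used here. Positions come from a GRCm38 annotation. Counts without a feature (6.42 to 16.3% of a library) or ambiguous (0.30 to 0.422%) entered no total, and 0 columns of values were left unused.

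Counts were analysed with edgeR 4.0.16 (R 4.3.3): TMM factors, filterByExpr on the 4 groups of gate and day (13467 of 24421 genes), and quasi-likelihood tests of day with gate as a term, two-sided, with Benjamini-Hochberg adjustment over all genes tested and a threshold of 0.05. CPM use TMM-scaled totals. The gate contrasts and their difference used 4 group means in the same 10 libraries. Groups and days came from the labels, and the gate from the library names. A code here stands for a pair as joined above, which was inferred for day 7. Libraries that share a code deviated together from their group means across genes (r = 0.405, 0.248, 0.275 and 0.429), while libraries of different codes had r of -0.429 to -0.102. Deviations from a group mean sum to 0, which pushes r of different codes below 0. At day 14, with 2 libraries per gate, it must mirror the r of shared codes. Nothing is therefore read from the values of different codes. A code occurs at 1 day only, so it was fitted as a random effect in limma 3.58.1 (correlation 0.30), and in a further alternative the libraries of a code were summed. Other alternatives were DESeq2 1.42.0, limma-voom, other scalings and filters, no gate term, all 26 libraries, an Xist term (above 20 CPM or not), thinned counts and leaving out each library or code. The scripts were tested on simulated data.

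Members and gene lists were chosen with earlier results of these data known. The naming rule took anchor genes, the 10 largest called differences in each direction (mean log2 CPM of at least 3, days apart inside each gate), up to 4 members per list and up to 4 genes per direction of the interaction. The 28 genes called in every leave-out fit, the lung list, and Nkd1, Fzd5, Chrdl1, Gdf6, Cd248, Emilin2, Kif26b, Cdh2, Lox, Col5a2 and Adgre1 were named after their values were seen. Counting error limits the precision: 3 counts in a library equal 0.0583 to 0.278 CPM. Figures were drawn with matplotlib 3.10.9. Some genes are not reported here.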

Additional observations from a re-analysis of the deposited data

Results flagged for a closer look

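In each group of 4 day 14 or 6 day 7 libraries, the highest and lowest values were compared with the rest. In 17 of 380 groups 1 library stood apart, where chance does so in about 1 in 20. At day 7 these were, in CPM, 4A for Adipoq (1.73), Grem1 (0.133), Hoxb5 (0.332), Tbx5 (3.85) and Ugt1a6a (11.2), 4B for Fabp4 (12.2), the uncoded negative library for Bmp3 (0.0739) and Gfra1 (94.1), and 1A for Jchain (1.07) and Myh6 (10.1). At day 14 they were D9 positive for Cthrc1 (72.0), D9 negative for Nov (90.6), Tmeff2 (5.21) and Myl7 (0.0971), D1 positive for Lpl (815) and D1 negative for Plk1 (3.93). The last was the highest Plk1 value of day 14. D9 negative also had the largest share of counts without a feature (16.3%). Tbx5, Nov and Jchain had no overlap between the days with these libraries included.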

How the results depend on the processing

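Over both gates 352 genes were called, 970 by DESeq2, 676 without a low-count filter, 550 with an Xist term, 47 without the gate term and 48 with all 26 libraries. With the replicate block, the pair as a random effect gave 113 and pairs summed 0. Upper-quartile scaling gave 218 higher and 132 lower. Leaving out 1 library gave 144 to 378 and leaving out a pair 62 to 418. In the positive gate the 2 calls became 112 by DESeq2, 84 without a filter, 1 by limma-voom, 1 with the block, 0 with all 26 libraries, 0 with only the gate's 5 libraries, and 0 to 12 with a library left out. In the negative gate the 0 calls became 182, 96 without a filter, 11 with the block, 1 with only the gate's libraries and 0 to 1 with a library left out. The interaction gave 1 by DESeq2, 1 without a filter and 0 to 1 with a library left out. The causes of these shifts were not tested, and the fits that leave libraries out also have fewer samples. Under alternatives, 0 of 2645 values of called named genes and 32 of 2363 values of the others (12 of 88 genes) changed sign. Of all 5008, 823 lost and 96 gained a call. Of 98 called named genes, 55 were called with the block and 28 in all 15 leave-out fits. The 28 were taken into the named genes for passing these fits, so neither share measures how stable the calls are. Over all 352 calls, 28 passed all 15 leave-out fits and the block. Of 864 list medians 50 moved. Depth limits low genes: 3 counts equal 0.169 to 0.278 CPM at day 7.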
